A study of Mus musculus with 6 samples.

Results

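RNA from the aorta of mice without apolipoprotein E was compared with that of wild-type mice in 6 libraries. The 4 ApoE-/- libraries, taken by their labelled genotype and with both diets pooled, were set against the 2 wild-type libraries. The wild-type group was C57BL/6J on chow. The ApoE-/- libraries comprised 2 from animals on chow and 2 from animals moved at 3 months of age to a high-fat diet for 3 months. Every library is labelled as strain C57BL/6 and as aorta. The labels give no age for the chow groups, do not say how the Apoe allele was made, and do not say that replicates came from separate animals. P-values therefore reflect only how far these libraries differ from each other, and part of that may be technical. The question was which RNAs, circular or not, differed in the same direction in all 4 ApoE-/- libraries, whatever the diet.

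Apolipoprotein E is the ligand by which remnant lipoproteins are cleared through receptors of the LDL receptor family, and macrophages secrete it while they export cholesterol. Mice without it accumulate cholesterol-rich particles in plasma, develop arterial lesions slowly on chow, and develop them faster on a high-fat diet. A circRNA forms when a downstream splice donor joins an upstream acceptor, and reads across that back-splice join (junction reads) are what shows it directly. For each listed circRNA the files also count reads assigned to its genomic interval. In C57BL/6J 1, a Ubap2 interval at chr4:41209353-41229848 had a count of 2. The interval 41226280 to 41229848 nested in it had 26, all junction reads, which the longer interval did not count. How other reads shared by overlapping intervals were counted is not given. In C57BL/6J 2, the Pan3 interval chr5:147450653-147467097 and the longer one to 147503202 both had a count of 243. The count without the junction reads, summed per host gene, is called interval reads here. Interval reads come from linear, intronic and circular RNA alike and cover only the listed stretches of a gene, so they are not a whole-gene expression level. Their level is given as CPM, counts per 1000000, of scaled interval reads.

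The libraries held 69130844 to 77352690 reads, and junction reads were few and uneven. C57BL/6J 1 and 2 had 26605 and 3706 junction reads, ApoE-/- chow 1 and 2 had 14575 and 14519, and ApoE-/- high-fat 1 and 2 had 34805 and 16511. C57BL/6J 2 stood apart with the lowest count. It also had the lowest share of interval reads on Rpph1, Rmrp, Rn45s and the mitochondrial genome, the features left out of all scaling, at 28.7% against 45.4% to 69.8% in the others. Smooth muscle markers, of which 4 of 6 were listed, summed to 21790 and 4840 CPM in C57BL/6J 1 and 2 and to 11310 to 19710 CPM in the ApoE-/- libraries. The wild-type libraries thus held both the highest and the lowest value of this sum. Its members differed: Myh11 was higher in ApoE-/- chow 1 and high-fat 2, at 8982 and 9979 CPM, than in C57BL/6J 1, at 7857 CPM. Macrophage markers (3 of 8 listed) summed to 495 and 302 CPM in C57BL/6J, 415 and 656 CPM in ApoE-/- chow, and 1271 and 1547 CPM on the high-fat diet. All 5 endothelial, 2 of 4 fibroblast and 3 of 5 striated muscle markers were listed, and none of 3 neural markers was. The 1 listed lymphocyte marker of 4 was at 10.8 and 49.0 CPM in C57BL/6J and 39.9 to 47.0 CPM in ApoE-/-. The 1 listed blood marker of 4, the platelet gene Ppbp, had 21.7 and 26.4 CPM in C57BL/6J, 17.6 and 22.4 CPM in ApoE-/- chow, and 108 and 178 CPM on the high-fat diet, so it was highest where the macrophage markers were. In bulk tissue, fewer cells of a type and less RNA per cell cannot be told apart. The columns of the library labelled ApoE-/- chow 1 carry the name of a wild-type sample. The label was kept. Some results are also given without this library or without C57BL/6J 2. The counts of features without overlap, and many values of single genes, are given only with all libraries as labelled.

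Junction reads per 1000000 library reads (RPM) averaged 263 ± 129 in ApoE-/- aortae (SD, n = 4) and 212 ± 224 in wild type (SD, n = 2). The wild-type values were 370 and 53.6 RPM, those of ApoE-/- chow 188 and 192 RPM, and those of high-fat 456 and 216 RPM. All ApoE-/- libraries lay above C57BL/6J 2, and 3 of the 4 lay below C57BL/6J 1. The ratio of geometric means was 1.73 (exact two-sided permutation p = 0.467, where the smallest possible is 0.0667). It was 0.659 without C57BL/6J 2 and 4.56 without C57BL/6J 1, so its direction rested on 1 library. Distinct circRNAs numbered 5459 and 1823 in wild type, 3517 and 4152 in ApoE-/- chow, and 8894 and 4466 on the high-fat diet, a ratio of 1.56 (exact two-sided permutation p = 0.467). Thinned to 3706 junction reads each, the libraries held 2009 and 1823 in wild type, 1847 and 1995 in ApoE-/- chow, and 2203 and 2049 on the high-fat diet. That ratio was 1.06 (exact two-sided permutation p = 0.4).

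**Figure D1:**
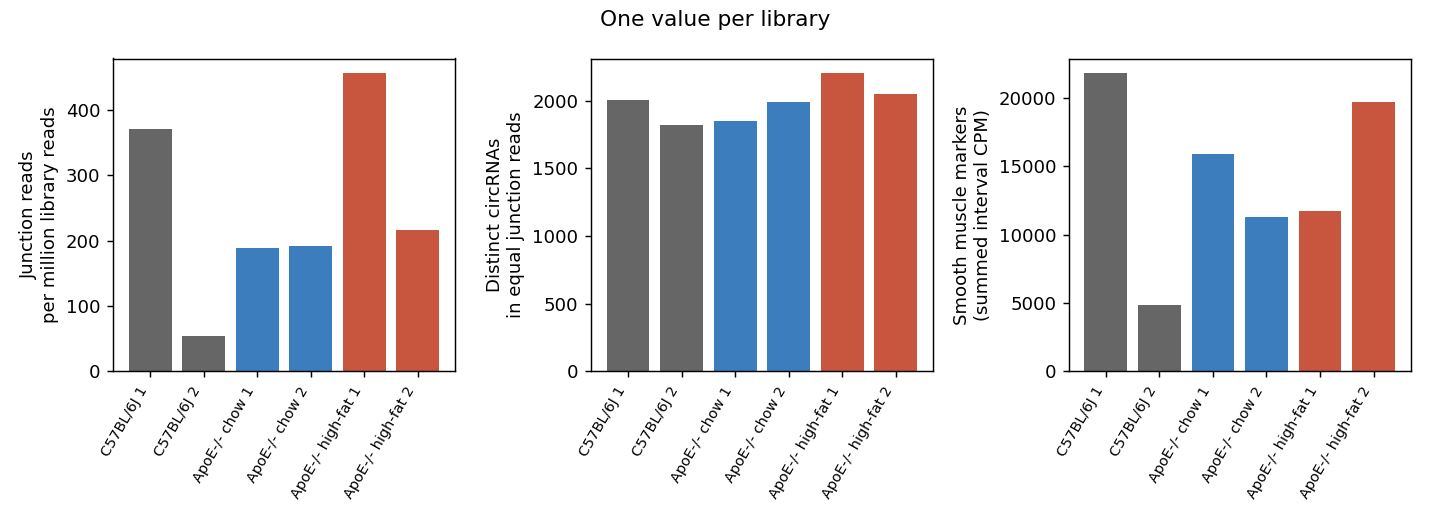
Bars give 1 value per library: junction reads per 1000000 library reads, RPM (left), distinct circRNAs among 3706 junction reads drawn from each library (middle) and the summed interval level of smooth muscle markers in CPM (right). C57BL/6J 2 is lowest in all 3 panels, at 53.6 RPM, 1823 circRNAs and 4840 CPM.

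Apoe itself was measured through a single listed interval of 71 bases at chr7:19696367-19696437 (GRCm38), near the lower-coordinate end of the gene at 19696244 to 19701310. It had 176 and 140 interval reads in wild type, 128 and 86 in ApoE-/- chow, and 78 and 75 on the high-fat diet. In CPM these were 382 and 264, 204 and 148, and 111 and 139. All 4 ApoE-/- libraries lay below both wild-type libraries, and none was near 0. The difference was log2 -1.12 with an unadjusted p of 0.00813 and did not pass (edgeR's quasi-likelihood test, adjusted p = 1). The sources used here do not give the disrupted part of the allele, so reads in this stretch do not check the genotype. Within 20 Mb on either side of Apoe, 14 of 117 tested genes (11.97%) did not overlap between the genotypes, and the share over all 6117 tested host genes was 11.8%.

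By interval reads, no host gene passed in the comparison of all ApoE-/- with wild-type aortae (0 of 6117; edgeR, adjusted p under 0.05). An unadjusted p under 0.05 was reached by 208 genes (3.4%), and DESeq2 called 1, Gpnmb. The genotypes did not overlap in 724 genes (11.8%), with all 4 ApoE-/- libraries above wild type in 353 (5.77%) and below in 371 (6.07%). Scaled to library totals instead, the split was 627 above and 155 below, as that scaling moved the median of all genes by 0.186 on the log2 scale. The nearest libraries of the genotypes were at least 2-fold apart in 28 genes (0.458%), of which 17 (0.278%) were higher and 11 (0.18%) lower in ApoE-/-. The genes below are those of smallest unadjusted p without overlap. They are given as values, not as calls. Where a C57BL/6J library is left out below, wild type is a single library that is assumed to vary like the ApoE-/- groups. Without C57BL/6J 1 it is C57BL/6J 2, the library that stood apart, and 131 genes then passed.

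Gpnmb, a transmembrane glycoprotein abundant in lipid-laden macrophages, had the smallest unadjusted p, though other genes differed by more and its nearest libraries were 1.15-fold apart. It had 41.2 and 62.2 CPM in wild type, 71.9 and 199 CPM in ApoE-/- chow, and 403 and 540 CPM on the high-fat diet. Every ApoE-/- library was above both wild-type libraries, narrowly so for ApoE-/- chow 1, and the high-fat libraries were highest. The pooled difference was log2 2.28 ± 0.51 (SE; edgeR, adjusted p = 0.516), with log2 1.37 for chow alone and 3.18 for high-fat alone. The high-fat libraries alone passed against wild type (edgeR, adjusted p = 0.0156). The pooled difference passed by DESeq2 (adjusted p = 0.00437), with library totals as scaling (edgeR, adjusted p = 0.0165), without C57BL/6J 1 (0.0234) and without both C57BL/6J 2 and ApoE-/- chow 1 (0.00148). Of the 8 macrophage markers, Gpnmb is 1 of the 3 listed, with the Lyz1 symbol and Mrc1, while Cd68, Adgre1 and Csf1r were not listed. Mrc1, the mannose receptor, did not follow Gpnmb, at 143 and 81.1 CPM in wild type, 78.3 and 81.2 CPM in ApoE-/- chow, and 74.0 and 35.2 CPM on the high-fat diet. The part of macrophage number, or of the platelet gene Ppbp that was highest in the same libraries, in the Gpnmb result was not tested.

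Ctsd, the lysosomal aspartic protease cathepsin D, was the other member of the foam cell list above wild type in all 4 libraries. It had 263 and 115 CPM in wild type, 350 and 409 CPM in ApoE-/- chow, and 433 and 781 CPM on the high-fat diet. The difference was log2 1.35 with an unadjusted p of 0.00641 (edgeR), and it passed without C57BL/6J 1 (edgeR, adjusted p = 0.00246). The symbol Lyz1 covers 2 listed intervals between 117277466 and 117289706 on chromosome 10, which reach beyond Lyz1 over its close copy Lyz2, the usual macrophage lysozyme, so the genes cannot be told apart. It had 310 and 158 CPM in wild type, 265 and 376 CPM in ApoE-/- chow, and 794 and 972 CPM on the high-fat diet. Its high-fat values were highest, but ApoE-/- chow 1 lay between the wild-type libraries.

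The promoters of Gpnmb and Ctsd are shown because both encode proteins of lysosomes and were the foam cell genes higher in all 4 libraries, a choice made after their values were seen. Each runs from 250 bases before to 50 after the gene's start, 5′ to 3′ on the gene's strand, from RefSeq on GRCm38.p6. The Gpnmb window is chr6:49036268-49036567 on the plus strand, and the Ctsd window is chr7:142387778-142388077 on the minus strand. Capitals mark the letters TCACGTG or its reverse complement CACGTGA, the core bound by MiT/TFE factors, which drive lysosomal genes.
Gpnmb: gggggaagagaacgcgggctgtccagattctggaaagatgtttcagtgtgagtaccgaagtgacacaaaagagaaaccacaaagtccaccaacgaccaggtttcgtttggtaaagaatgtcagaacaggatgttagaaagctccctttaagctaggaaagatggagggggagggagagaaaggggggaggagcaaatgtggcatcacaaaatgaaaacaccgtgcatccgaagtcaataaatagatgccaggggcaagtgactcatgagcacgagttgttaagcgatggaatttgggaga
Ctsd: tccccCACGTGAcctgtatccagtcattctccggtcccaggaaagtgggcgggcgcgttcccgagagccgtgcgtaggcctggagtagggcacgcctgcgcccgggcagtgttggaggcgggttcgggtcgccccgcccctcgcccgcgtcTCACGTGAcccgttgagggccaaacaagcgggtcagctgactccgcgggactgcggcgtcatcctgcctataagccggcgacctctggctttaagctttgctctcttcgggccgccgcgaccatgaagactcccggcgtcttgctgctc
The Ctsd window held these letters at 2 places, 1 of them readable on both strands, and the Gpnmb window had no match. Of 32851 RefSeq promoter windows of this length, 1237 (3.77%) held a match. A match is a description of the sequence, not of binding.

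Among the other genes higher in ApoE-/-, Ace, which converts angiotensin I to angiotensin II, had 80.3 and 28.3 CPM in wild type, 161 and 178 CPM in ApoE-/- chow, and 152 and 250 CPM on the high-fat diet. Libraries of both diets were above wild type, by log2 1.65 for chow and 1.89 for high-fat (pooled 1.77 ± 0.48 SE; edgeR, adjusted p = 1). Its single listed interval, chr11:105988016-105988593, had junction reads in 1 library, so these are almost wholly non-junction reads. Arhgef1, an exchange factor that activates RhoA, had 41.2 and 22.6 CPM in wild type, 99.0 and 84.6 CPM in ApoE-/- chow, and 85.4 and 167 CPM on the high-fat diet (log2 1.75 ± 0.48 SE; edgeR, adjusted p = 1). Ace and Arhgef1 passed only when C57BL/6J 1 was left out (edgeR, adjusted p = 0.00266 and 0.0343). Ubap2, a ubiquitin-associated RNA-binding protein, had 4.34 and 11.3 CPM in wild type, 43.1 and 67.3 CPM in ApoE-/- chow, and 55.5 and 25.9 CPM on the high-fat diet (log2 2.54 ± 0.71 SE). All of these reads, 2 and 6 in wild type and 27, 39, 39 and 14 in ApoE-/-, came from 1 of its 8 listed intervals, chr4:41209353-41229848, inside the gene. Ubap2 thus met the minimum of reads only through ApoE-/-, where it was high. The transcript fantom3_E330013P06 had 89.0 and 71.7 CPM in wild type, 198 and 130 CPM in ApoE-/- chow, and 241 and 413 CPM on the high-fat diet.

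Among the genes lower in ApoE-/-, Ak4, a mitochondrial adenylate kinase, had 56.4 and 37.7 CPM in wild type, 4.79 and 6.91 CPM in ApoE-/- chow, and 8.54 and 5.55 CPM on the high-fat diet. The lowest wild-type value was 4.42 times the highest ApoE-/- value, and the diets gave log2 -2.96 and -2.68 (pooled -2.82 ± 0.74 SE; edgeR, adjusted p = 1). The reads behind it were 26 and 20 in wild type and 3 to 6 in each ApoE-/- library, all in 1 interval at chr4:101420136-101420299. Itpk1, an inositol phosphate kinase, had 23.9 and 41.5 CPM in wild type, 1.60 and 1.73 CPM in ApoE-/- chow, and 2.85 and 7.40 CPM on the high-fat diet (log2 -3.40 ± 0.98 SE). Megf11, a transmembrane protein with EGF-like repeats, had 49.9 and 50.9 CPM in wild type against 4.79, 10.4, 18.5 and 14.8 CPM (log2 -2.14 ± 0.64 SE). The wild-type libraries were close together, and the values rest on 2 short intervals, 1 of which had 13 and 19 reads in wild type and 0, 0, 9 and 1 in ApoE-/-. Klhl12, an adaptor of the CUL3 ubiquitin ligase, had 30.4 and 94.3 CPM in wild type, 9.58 and 12.1 CPM in ApoE-/- chow, and 27.0 and 18.5 CPM on the high-fat diet. The gap between C57BL/6J 1 and high-fat 1 was small, and Klhl12 passed when C57BL/6J 1 was left out (edgeR, adjusted p = 0.0123). The transcript fantom3_1700102N24 had 10 and 15 reads in wild type, 2 and 0 in ApoE-/- chow, and 1 and 0 on the high-fat diet. Ak4, Itpk1 and this transcript met the minimum of reads only through wild type, where they were high. The size of their gap is therefore no separate support.

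**Figure D2:**
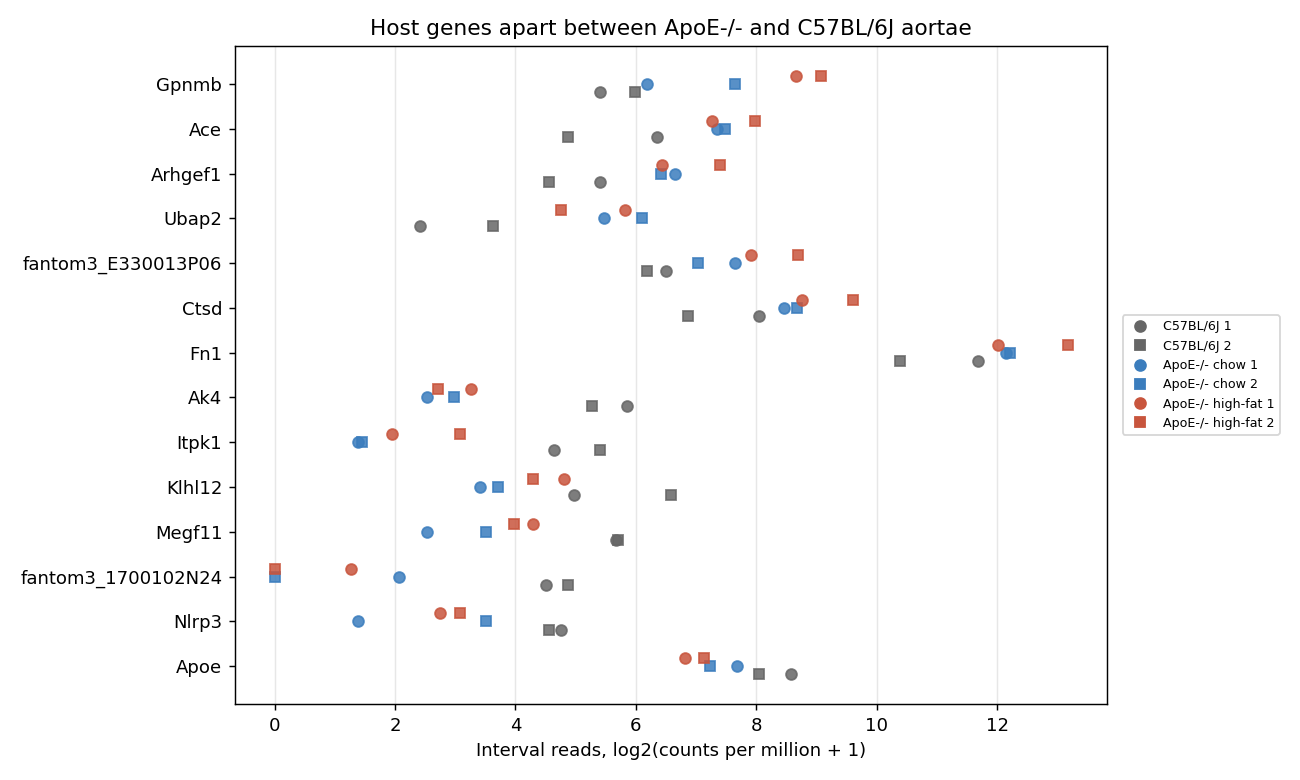
Each row is a host gene and each point a library, with interval reads on the horizontal axis as log2(CPM + 1); grey, blue and orange are C57BL/6J, ApoE-/- chow and ApoE-/- high-fat, circles are replicate 1 and squares replicate 2. From Gpnmb to Fn1 every ApoE-/- point lies right of both grey points, and from Ak4 to Apoe every one lies left of them.

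The other genes at least 2-fold apart were low in reads, and none passed (edgeR, adjusted p = 1). Higher in ApoE-/- were the mitophagy receptor Bnip3l, with 6.51 and 3.77 CPM in wild type and 22.8 to 37.0 CPM in ApoE-/-, and apolipoprotein D (Apod), a lipocalin, with 4.34 and 7.54 against 22.4 to 27.2 CPM. Apod differed little among the ApoE-/- libraries. Also higher were Ireb2, which controls iron handling, the splicing factor Rbm5, the autophagy regulator Ambra1, the actin regulators Wasl and Twf1, the death-associated kinase Dapk1, Asxl2, Tg, Usp42, Fbxo42, Glt1d1 and Zfp810. The transcript fantom3_A830006E17 had 0 reads in both wild-type libraries and 12, 15, 5 and 4 in ApoE-/- ones. Its ApoE-/- mean was 2.45-fold the mean level that 3 reads give over the wild-type libraries. Lower were the inflammasome sensor Nlrp3, with 26.0 and 22.6 CPM in wild type and 1.60 to 10.4 CPM in ApoE-/-, the tankyrase Tnks, with 82.5 and 79.2 against 30.4 to 38.4 CPM, and the transmembrane collagen Col23a1, with 30.4 and 24.5 against 0 to 5.69 CPM. Nlrp3 rested on 12 reads in each wild-type library. Fam32a, Acsf3 and Crtc1 were also lower. Nlrp3, Col23a1, Acsf3 and Crtc1 met the minimum of reads only through wild type. Of the higher genes in this paragraph, all but Rbm5 met it only through ApoE-/-. Their gaps are therefore no separate support.

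Lists of genes for pathways and cell types were described by how many members lay above 0. Over all genes tested, 2930 of 6117 (47.9%) had a log2 difference above 0, with a median of -0.02. All 4 ApoE-/- libraries lay above wild type in 5.77% of all genes tested and below in 6.07%. No member of any list passed (edgeR). When each library was left out in turn, or library totals were used as scaling, the median changed sign in 15 of the 19 lists. It kept its sign in 4, those of cholesterol synthesis, lipoprotein clearance, endothelial genes and back-splicing regulators. In the lipoprotein clearance list, 7 of 11 members were above 0 (median 0.15; 0.67 without C57BL/6J 1 and 0.01 without C57BL/6J 2). The receptor Lrp1 had 1387 and 624 CPM in wild type and 1147 to 2545 CPM in ApoE-/-, so the genotypes overlapped. Angptl4, an inhibitor of lipoprotein lipase, had 135 and 67.9 CPM in wild type, 59.1 and 44.9 CPM in ApoE-/- chow, and 32.7 and 25.9 CPM on the high-fat diet (log2 -1.36, unadjusted p = 0.00451). It was below wild type in all 4, as Apoe was. Of the 11 members, 2 (18.2%) were thus below in all 4, and 1 (9.09%) was above in all 4.

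In the list of cholesterol synthesis and its control, 9 of 12 members were below 0 (median -0.31), and its median lay between -0.47 and -0.12 over those settings. Srebf2, the transcription factor that induces the pathway, was above wild type in all 4 ApoE-/- libraries, at 52.7, 31.1, 35.6 and 53.7 CPM against 19.5 and 20.8 CPM. Insig2, which retains SREBPs in the endoplasmic reticulum, was below in all 4. Of 21 members of the efflux and liver X receptor (LXR) list, 9 were above 0 (median -0.07). Nr1h3, which encodes LXR-alpha, had 47.8 and 41.5 CPM in wild type, 70.3 and 88.1 CPM in ApoE-/- chow, and 69.7 and 118 CPM on the high-fat diet (log2 0.95, unadjusted p = 0.0459). Gramd1a, a sterol transporter between membranes, was likewise higher in all 4, at 33.3 to 97.4 CPM against 19.5 and 32.1 CPM. Npc2, which moves cholesterol out of lysosomes, was lower, at 87.0 to 122 CPM against 193 and 128 CPM.

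Of 19 foam cell and macrophage members, 8 were above 0 (median -0.05). Without C57BL/6J 1, 12 were above 0 (median 0.60) and 3 passed as higher, and with library totals 13 were (median 0.16). Lyn, a myeloid kinase, was below wild type in all 4, at 14.4, 0, 11.4 and 1.85 CPM against 21.7 and 22.6 CPM. Of 19 inflammation signalling members, 11 were above 0 (median 0.10). The 4 members below wild type in all ApoE-/- libraries (21.1% of the list, where 6.07% of all genes were) were the NF-kappaB subunit Rel, the adaptor Traf2, the TNF receptor Tnfrsf1b and Nlrp3. Rel had 47.8 and 56.6 CPM in wild type against 19.2, 29.4, 19.9 and 12.96 CPM in ApoE-/- (log2 -1.37, unadjusted p = 0.0215). None was above wild type in all 4. In the endoplasmic reticulum stress and autophagy list 13 of 24 were above 0 (median 0.02). The disulfide isomerase Pdia4 was above wild type in all 4 libraries, at 77.7 to 95.8 CPM against 54.3 and 32.1 CPM. It was the only such member (4.17%), and 1 other (4.17%) was below in all 4.

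Smooth muscle contractile genes were above 0 in 29 of 40 (median 0.13). All 4 ApoE-/- libraries lay above wild type in 2 members (5%), where 5.77% of all genes did. Smtn, a smooth muscle cytoskeletal protein, had 397 and 138 CPM in wild type, 613 and 618 CPM in ApoE-/- chow, and 504 and 1050 CPM on the high-fat diet (log2 1.37, unadjusted p = 0.00698). Ryr2, a calcium release channel, had 317 and 390 CPM in wild type and 423 to 489 CPM in ApoE-/-. The most abundant members, Flna, Tns1, Myh11 and Acta2, were all lowest in C57BL/6J 2. For Acta2, smooth muscle actin, C57BL/6J 1 was highest at 11510 CPM and C57BL/6J 2 lowest at 2092 CPM, with ApoE-/- libraries between 5069 and 7986 CPM. Without C57BL/6J 1 the list's median was 0.92 and 13 members passed as higher, and without C57BL/6J 2 it was -0.09 and 17 of 40 were above 0. The direction of this list therefore depended on which wild-type library was kept.

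Extracellular matrix genes were above 0 in 32 of 44 (median 0.25; 0.82 without C57BL/6J 1 and -0.10 without C57BL/6J 2). Fn1, fibronectin, had 3286 and 1341 CPM in wild type, 4551 and 4738 CPM in ApoE-/- chow, and 4111 and 9224 CPM on the high-fat diet over 19 listed intervals. It was above wild type in all 4 (log2 1.27; edgeR, unadjusted p = 0.0114), as was the laminin gene Lama2. These were 4.55% of the list, where 5.77% of all genes were, and 1 member (2.27%) was below in all 4. Eln, elastin, had 15790 and 6443 CPM in wild type against 6148, 6722, 5758 and 9339 CPM, with C57BL/6J 2 among the ApoE-/- values. Adipocyte and brown fat genes were above 0 in 4 of 28 (median -0.26), and none was without overlap. With library totals 13 of 28 were above 0 (median -0.06), and without C57BL/6J 1 20 were (median 0.40), so no direction held for them. Adipocyte markers, 3 of 4 of which were listed, summed to 1137 and 377 CPM in wild type and to 568 to 962 CPM in ApoE-/-.

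The RNA-binding proteins that regulate back-splicing were above 0 in 21 of 26 (median 0.21). Without C57BL/6J 1, 14 were above 0 (median 0.13), and without ApoE-/- chow 1, 16 were (median 0.07). The editing enzyme Adar had 117 and 123 CPM in wild type and 131 to 165 CPM in ApoE-/-, and the splicing factor Srsf1 71.6 and 83.0 against 83.3 to 96.8 CPM. Both, 7.69% of the list, were above wild type in all 4 by small margins. The most abundant members, Adarb1, Celf2, Mbnl1 and Mbnl2, overlapped between genotypes. Endothelial genes were above 0 in 13 of 20 (median 0.18), TGF-beta and BMP genes in 14 of 23 (median 0.17), fibroblast genes in 9 of 17 (median 0.10), striated muscle genes in 5 of 9 (median 0.06) and cell cycle genes in 6 of 13 (median -0.18). Lymphocyte genes were above 0 in 2 of 7 (median -0.02), interferon response genes in 3 of 8 (median -0.05), Schwann and neural genes in 2 of 6 (median -0.08) and platelet and blood cell genes in 3 of 7 (median -0.17).

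**Figure D3:**
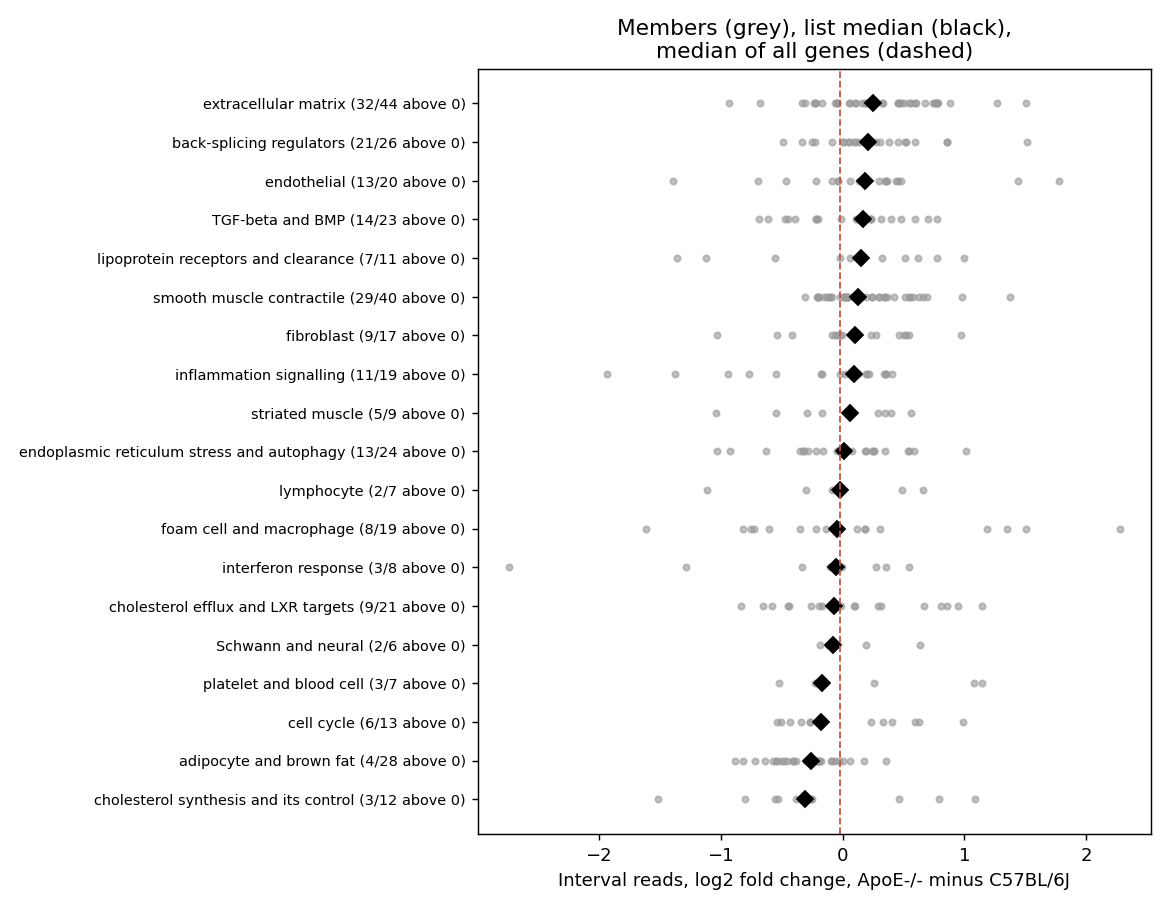
Grey points are the tested members of each gene list and black diamonds their median, on the horizontal axis as log2 fold change of interval reads, ApoE-/- minus C57BL/6J; the dashed line is the median of all genes at -0.02. List medians run from -0.31 to 0.25, with members on both sides of 0 in every list.

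At single back-splice joins, no circRNA passed (0 of 1013; edgeR). An unadjusted p under 0.05 was reached by 49 (4.84%), and DESeq2 called 0. The genotypes did not overlap in 109 circRNAs (10.8%), with 80 (7.9%) higher and 29 (2.86%) lower in ApoE-/-. C57BL/6J 2 had 0 reads in 724 of the 1013 (71.5%), so the wild-type side of most comparisons rested on C57BL/6J 1. No circRNA with 0 reads there could lie below both wild-type libraries, so the numbers higher and lower cannot be compared. A count of 3 reads was worth 72.6 per 100000 scaled junction reads in C57BL/6J 2 and 9.8 to 20.3 in the other libraries, and many ApoE-/- values lay under what C57BL/6J 2 could show. All intervals and floors cover counting error only.

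A circRNA of Cdc14b, a phosphatase that counters cyclin-dependent kinases, had the smallest unadjusted p among those higher in ApoE-/- without overlap. It spans chr13:64243634-64248499 (4866 bases, within the gene at 64192545 to 64274988). It had 0 and 1 junction reads in wild type, 29 and 22 in ApoE-/- chow, and 54 and 16 on the high-fat diet. Per 100000 scaled junction reads, that was 12.1 ± 17.1 in wild type (SD, n = 2) and 155 ± 41.7 in ApoE-/- (SD, n = 4). The genotypes did not overlap, but the C57BL/6J 2 level of 24.2 was 1 read, and 3 reads there give 72.6. The lowest ApoE-/- level was 99.6. The difference was log2 4.84 ± 1.59 (SE; edgeR, adjusted p = 0.649). Leaving 1 library out, it ran from 2.64 to 7.99, the latter without C57BL/6J 2, so with wild type a single library. A shorter Cdc14b circle with the same lower coordinate, 64243634 to 64247318, had 14 and 0 reads in wild type, 3 and 0 in ApoE-/- chow, and 18 and 10 on the high-fat diet. C57BL/6J 1 thus had Cdc14b back-splicing, but 0 of its 14 Cdc14b junction reads were of the longer circle (95% exact binomial interval 0% to 23.2%). In ApoE-/- libraries the longer circle made up 72.5%, 100%, 75.0% and 59.3% of Cdc14b junction reads. In C57BL/6J 2 it was the only Cdc14b read (1 of 1, exact binomial interval 2.5% to 100%). The circle was picked by these same reads, which met the minimum only through ApoE-/-, so its shares are no separate support. Summed over the gene, Cdc14b had 14 and 1 reads in wild type and 40, 22, 72 and 27 in ApoE-/- (log2 2.23 ± 0.89 SE; edgeR, adjusted p = 1).

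The next 4 higher circRNAs had 0 reads in both wild-type libraries, and none passed (edgeR, adjusted p = 0.922). That of Etv6, an ETS-family repressor, at chr6:134115220-134137417, had 4 and 4 reads in ApoE-/- chow and 21 and 25 on the high-fat diet. Its mean was 1.66-fold the floor. A longer Etv6 circle with the same upper coordinate, 134066307 to 134137417, was read in every library, with 17 and 5 reads in wild type, 9 and 3 in ApoE-/- chow, and 14 and 10 on the high-fat diet. The shorter circle was 0 of 24 and 0 of 5 Etv6 junction reads in wild type (exact binomial intervals up to 14.2% and 52.2%). It was 22.2% and 30.8% in ApoE-/- chow, whose intervals from 6.41% and 9.09% overlap those of wild type. On the high-fat diet it was 43.8% and 64.1%. These shares use the reads by which the circle was picked and are no separate support. The circRNA of Memo1, a cell motility protein, at chr17:74241905-74258505, had 7, 7, 20 and 12 reads, 1.40-fold the floor. All Memo1 junction reads together had 0 and 0 against 7, 7, 31 and 19, 1.89-fold the floor of host junction reads. That of Dhrsx, a short-chain dehydrogenase on an unlocalised scaffold, had 14, 10, 16 and 3 reads, 1.39-fold the floor. By the whole count column, 209 and 48 against 186, 155, 176 and 135, its direction turned (log2 -0.0073). That of Tmem164, at chrX:142752040-142834393, had 2, 10, 20 and 12 reads, 1.32-fold the floor.

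Of the circRNAs lower in ApoE-/-, that of Atp2a2, the SERCA calcium pump of muscle, at chr5:122489238-122491785, had 17 and 8 reads in wild type, 0 and 0 in ApoE-/- chow, and 13 and 5 on the high-fat diet. That of Nf2, the membrane-cytoskeleton linker merlin, at chr11:4780578-4784563, had 27 and 4, 0 and 0, and 20 and 4 reads. In both, the chow libraries were at 0 and the high-fat libraries were nearer to wild type (log2 -4.59 ± 1.65 and -4.14 ± 1.66 SE for both diets; edgeR, adjusted p = 0.922). The difference between the diets did not pass for either (edgeR, adjusted p = 0.691). A 122-base circRNA of Cdk8, the kinase of the Mediator complex, at chr5:146261057-146261178, was low in both diets, with 14 and 8 reads in wild type, 3 and 0 in chow and 2 and 0 on the high-fat diet (log2 -4.07 ± 1.54 SE; edgeR, adjusted p = 0.922). Cdk8 as a whole had 56 and 10 junction reads in wild type and 32, 43, 35 and 37 in ApoE-/-. This circle was 25.0% and 80.0% of Cdk8 junction reads in wild type and 9.38%, 0%, 5.71% and 0% in ApoE-/-. The exact binomial interval of 14.4% to 38.4% in C57BL/6J 1 overlapped that of ApoE-/- chow 1, 1.98% to 25.0%. The circle was picked by these same reads, which met the minimum only through wild type, so the shares are no separate support. The circRNA of the receptor phosphatase Ptpra had 11 and 6 reads in wild type and 0, 0, 0 and 6 in ApoE-/-, and that of Ccdc141 had 16 and 6 against 0, 1, 7 and 7.

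**Figure D4:**
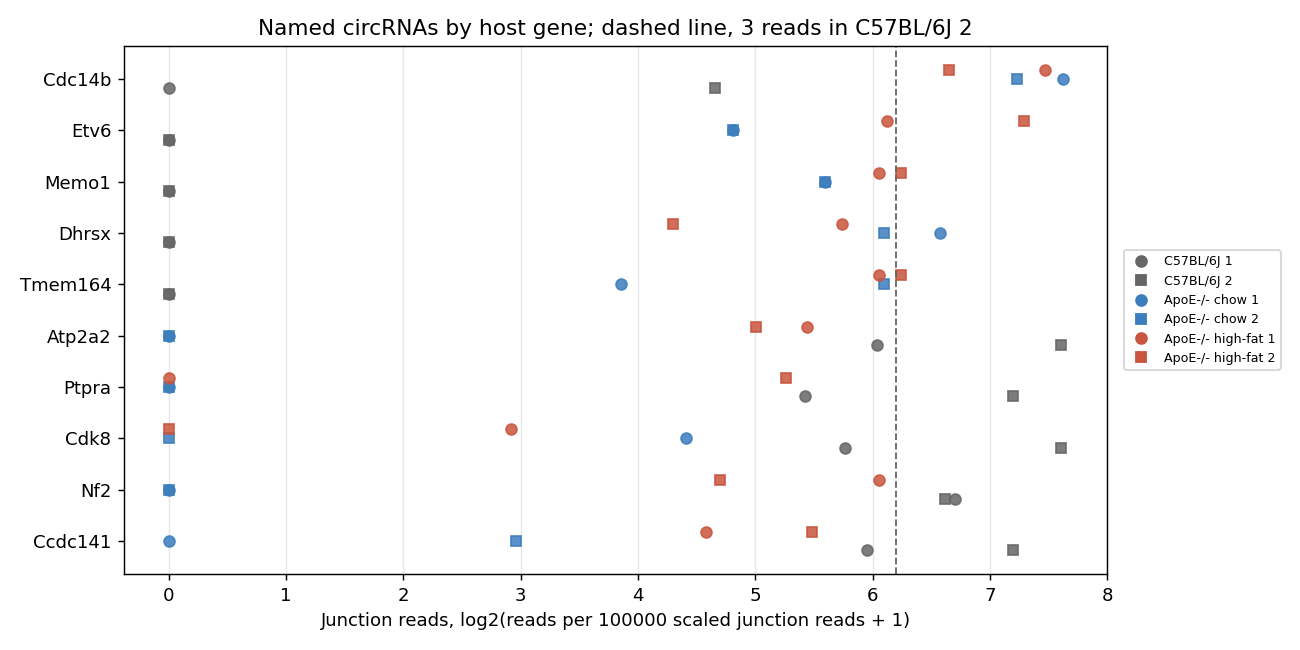
Each row is a named circRNA and each point a library, on the horizontal axis as log2(junction reads per 100000 scaled junction reads + 1); grey, blue and orange are C57BL/6J, ApoE-/- chow and ApoE-/- high-fat, circles replicate 1 and squares replicate 2. The dashed line is the level that 3 reads give in C57BL/6J 2, 72.6 per 100000, and most ApoE-/- points of the upper 5 rows except those of Cdc14b lie left of it.

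With junction reads summed per host gene, 2 of 1259 genes passed, both lower in ApoE-/- (0.159%; edgeR), and an unadjusted p under 0.05 was reached by 53 (4.21%). DESeq2 called 1. The genotypes did not overlap in 149 genes (11.8%), 117 (9.29%) higher and 32 (2.54%) lower. C57BL/6J 2 had 0 junction reads in 761 of the 1259 genes (60.4%). Those genes could not lie below both wild-type libraries, so these numbers cannot be compared either. H2afy, which encodes the histone variant macroH2A1, was lower (log2 -6.41 ± 1.47 SE; edgeR, adjusted p = 0.00829). Neither diet alone passed against wild type (edgeR, adjusted p = 0.146 for chow and 0.421 for high-fat). It had 13 and 14 junction reads in wild type, 0 and 0 in ApoE-/- chow, and 3 and 0 on the high-fat diet. H2afy thus met the minimum of reads only through wild type, where it was high. The wild-type reads came from different circles. All 14 of C57BL/6J 2 joined 56083120 to 56084285 on chromosome 13, which no other library had, and all 13 of C57BL/6J 1 joined 56104302 to 56104995, which high-fat 1 also had with 3 reads. The call was lost with library totals, with no minimum of reads, with the replicate number as a block (edgeR, adjusted p = 0.163), and when any single library other than C57BL/6J 1 was left out.

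Phf21a, a histone reader of the LSD1 complex, fell in the fit (log2 -3.37 ± 0.69 SE; edgeR, adjusted p = 0.00121), but its genotypes overlapped. It had 233 and 2 junction reads in wild type, 6 and 9 in ApoE-/- chow, and 10 and 9 on the high-fat diet. A single circle, chr2:92214049-92230724, gave 218 of the 233 reads in C57BL/6J 1 and was read in no other library. Without C57BL/6J 1 the difference was log2 0.00026 (edgeR, adjusted p = 1). The other host genes without overlap were not called. Akap6, an anchor of protein kinase A, had 1 and 0 reads in wild type and 13, 15, 11 and 15 in ApoE-/-. The transcript fantom3_F730114K07 had 0 and 0 against 3, 17, 5 and 16. Its ApoE-/- mean was 1.53-fold the mean level that 3 reads give over the wild-type libraries. Both met the minimum of reads only through ApoE-/-. Pan3, a subunit of the PAN deadenylase, had 6 and 7 reads in wild type and 0, 0, 7 and 0 in ApoE-/-. Its high-fat 1 library had as many reads as wild type and was lower only per scaled junction read.

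Within the ApoE-/- libraries, high-fat was set against chow to see how far the pooled genotype held the diets together. Among circRNAs 1 of 1013 passed (0.0987%), lower in high-fat, and by interval reads 0 of 6117 passed (edgeR; 122, or 1.99%, had an unadjusted p under 0.05, and DESeq2 called 2). For Gpnmb the diets differed by log2 1.80 (edgeR, unadjusted p = 0.0014, adjusted p = 1). The comparison of genotypes by interval reads was sensitive to C57BL/6J 1. Without it 131 host genes passed (edgeR), 125 higher and 6 lower in ApoE-/-, and with any other library left out none did. Without both C57BL/6J 2 and ApoE-/- chow 1, 17 passed, 5 higher and 12 lower, with wild type again a single library, and the fat genes Fabp4, Pck1, Cidea and Cebpa were among the lower ones. Of the genes passed without C57BL/6J 1, 13 are in the smooth muscle list, whose markers summed to 4840 CPM in the remaining wild-type library and 21790 CPM in the one left out.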

How the data were processed

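Aortic RNA of 6 libraries was analysed from the deposited tables of circRNAs. Per the file headers, the authors' count column holds whole-number counts of reads assigned to each circRNA interval, the junction column holds counts of reads across the join, and the RPM column scales the count to the library. Library totals were computed from the deposited count and RPM values. Per the submitters' processing notes TopHat and HTSeq were used, and the sources used here do not give the back-splice caller. The kit's strand handling is not given either, so an antisense neighbour's reads cannot be told apart. The tables hold 20532 circRNAs on GRCm38 and 7051 host symbols, of which 6220 matched RefSeq directly and 365 by synonym, and 2133 circRNAs have no symbol. A circRNA missing from a library's table was taken as 0.

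Junction reads per circRNA and per host, and interval reads (count minus junction) per host, were tested with edgeR 4.0.16 in R 4.3.3 (quasi-likelihood, TMM). All 6 libraries, in 3 groups, were fitted together, leaving 3 residual degrees of freedom, and the contrast was the mean of both ApoE-/- groups minus C57BL/6J. Features needed 5 junction or 10 interval reads in 2 libraries. P-values were Benjamini-Hochberg adjusted over all features, with a threshold of 0.05, and an adjusted p printed as 1 is rounded. DESeq2 1.42.0, other scalings, minima, each library left out and a replicate block were alternatives. Rpph1, Rmrp, Rn45s and chrM were left out of scaling. The fits were tested on simulated data.

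Named features are those past the threshold without overlap, filled to 5 per direction by the smallest unadjusted p without overlap, plus list members with the highest level or at least 2-fold apart. Other list members without overlap, Phf21a and the sequences were named after their values were seen. The members and lists were chosen with earlier results of these data known. Of each list, the tested members are those that passed the minimum. Replicate numbers did not pair samples (correlations of deviations between -0.12 and 0.11). Some items that met these rules are not reported here.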

Additional observations from a re-analysis of the deposited data

Results flagged for a closer look

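Within the 4 ApoE-/- libraries, 34 values were checked for 1 library far from the other 3, and 6 stood apart. Chance alone gives about 1 in 20 groups, but only for normally spread values. A feature read in 1 of the 4 libraries alone always stands apart, as Ptpra, H2afy and Pan3 did. That rate therefore does not apply to the 6, and no cause was tested. High-fat 1 had 456 junction reads per 1000000 library reads, far above the other 3. The other 5 are levels per 100000 scaled junction reads. For the Tmem164 circRNA, ApoE-/- chow 1 was far below the rest at 13.5. The Ptpra circRNA was read in high-fat 2 alone, at 37.4. By host gene, Akap6 was far lower in high-fat 1, at 36.4, than in the other 3. H2afy and Pan3 were read in high-fat 1 alone, at 9.92 and 23.1. The 2 C57BL/6J libraries are too few for this check.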

How the results depend on the processing

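Counts of called features moved with the processing. For circRNAs the count of 0 became 1 with no minimum of reads (the Phf21a circle read in 1 library) and with high-fat alone, and ran from 0 to 8 when 1 library was left out. For host junction reads the 2 calls became 1 with DESeq2, 0 with library totals, no minimum or high-fat alone, 1 with chow alone (Gigyf2, higher in ApoE-/- and neither of the 2), and 4 (Phf21a and 3 others) without both C57BL/6J 2 and ApoE-/- chow 1, with 0 to 13 when 1 library was left out. For interval reads the count of 0 became 1 with DESeq2, library totals or high-fat alone, and 17 without both libraries, with 0 to 131 when 1 was left out. With the replicate number as a block there were 0 calls for circRNAs, 0 for host junction reads and 0 for interval reads, and the numbers did not pair the samples.

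The 109 circRNAs without overlap became 51 with library totals, 53 with the minimum doubled, 177 with no minimum and 1909 by the count column. The 149 host genes by junction reads became 64, 77 and 269 in the first 3 of these settings. Between diets, the 1 circRNA call became 0 with DESeq2, DESeq2 size factors, library totals, the minimum doubled, the count column or without both libraries, and 3 with no minimum (0 to 3 leaving 1 out). The 0 interval calls became 2 with DESeq2 or library totals and 1 without both libraries (0 to 5 leaving 1 out). These diet alternatives, and leaving out both libraries, were chosen after seeing the data.

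Junction yield, a ratio of 1.73, ran from 0.659 to 4.56 and distinct circRNAs, 1.56, from 0.899 to 2.69 leaving 1 library out, reversed without C57BL/6J 2. Among the named features, reversed too were Phf21a without C57BL/6J 1 (log2 0.00026, the top of a range from -4.23 leaving 1 out) and the Dhrsx circRNA by the count column (log2 -0.0073). List members and list medians were judged by the size of the move alone, so their changes of sign are not counted as reversed. The medians of 15 of 19 lists changed sign leaving 1 library out or with library totals. Acta2 ran from log2 -0.963 to 1.48 leaving 1 out. Of the other values, for single genes and lists, 1788 kept their direction and side or moved by less than 1 SD, 237 moved by more, 21 lost a call and 11 gained one. Where no cause is shown by the setting itself, the cause was not tested. Depth limits the junction results, since C57BL/6J 2 has 3706 junction reads.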
